A study of Mus musculus with 26 samples.

Results

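BD ganglion cells are a subtype of retinal ganglion cell, the output neuron of the retina, that carries YFP in a transgenic mouse line and is named for its bistratified dendrites. They were represented by 2 of the 26 arrays of the series, which profiled 13 subtypes of retinal neuron with 2 replicates each. The 2 arrays were taken by their labels and set against the 10 arrays of the 5 other ganglion cell subtypes, Cdh3, Isl2, J, W3 and W7. All 12 ganglion cell samples were Thy1-positive cells sorted from retinas at postnatal day 6 after papain dissociation, and the replicates of a subtype came from different litters. BD, J, W3 and W7 cells were YFP-positive and came from C57BL/6 mice. Isl2 cells were sorted by beta-galactosidase in C57BL/6 mice. Cdh3 cells were GFP-positive cells of a bacterial artificial chromosome line, and their strain is given as Swiss Webster x C57BL/7 for replicate 1 and Swiss Webster x C57BL/8 for replicate 2. The promoter that drives YFP in each line, the number of animals per sample and the number of cells sorted do not appear in the labels. RNA went through 2 rounds of amplification before hybridisation.

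The BD line is known for marking ON-OFF direction-selective ganglion cells. These cells spread their dendrites in both an outer and an inner layer of the inner plexiform layer, where they receive input from starburst amacrine cells, and fire when an edge moves in their preferred direction. In the first postnatal week the dendritic strata and the axonal targets of such subtypes are still being refined, a period in which adhesion and recognition molecules are widely studied. The comparison asked which genes set BD cells apart from other ganglion cells at this age.

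Levels are quantile-normalised log2(intensity + 16) values of the brightest probe set of each gene, and differences between groups are on the same scale, so that a difference of 1 is a doubling for a bright gene and understates the change of a dim one. A gene passed when limma's test gave a Benjamini-Hochberg adjusted p under 0.05 over all 13951 genes tested and the difference was at least 1. It was called separated when both BD arrays lay above, or both below, all 10 other ganglion cell arrays. Intensities of a sorted population cannot tell fewer cells of a type apart from less RNA per cell.

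The 2 BD arrays agreed less than the replicates of any other ganglion cell subtype. Over the 2000 most variable genes their Pearson correlation was 0.764, whereas the replicates of Cdh3, J, W7, W3 and Isl2 correlated at 0.805, 0.897, 0.915, 0.931 and 0.975. BD replicate 1 lay closest to Isl2 replicate 1 (r = 0.926), and its correlations with the 10 other arrays had a median of 0.851. BD replicate 2 lay closest to W3 replicate 1 (r = 0.781), with a median of 0.730. The 2 BD arrays differed by at least 1 log2 unit for 1493 genes, which is 10.70% of those tested, against 42 genes between the Isl2 replicates and 678 between the Cdh3 replicates. BD replicate 2 was the array that stood apart: 75 genes were at least 1 unit above and 95 at least 1 unit below all 11 other ganglion cell arrays, and for BD replicate 1 both counts were 0.

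**Figure D1:**
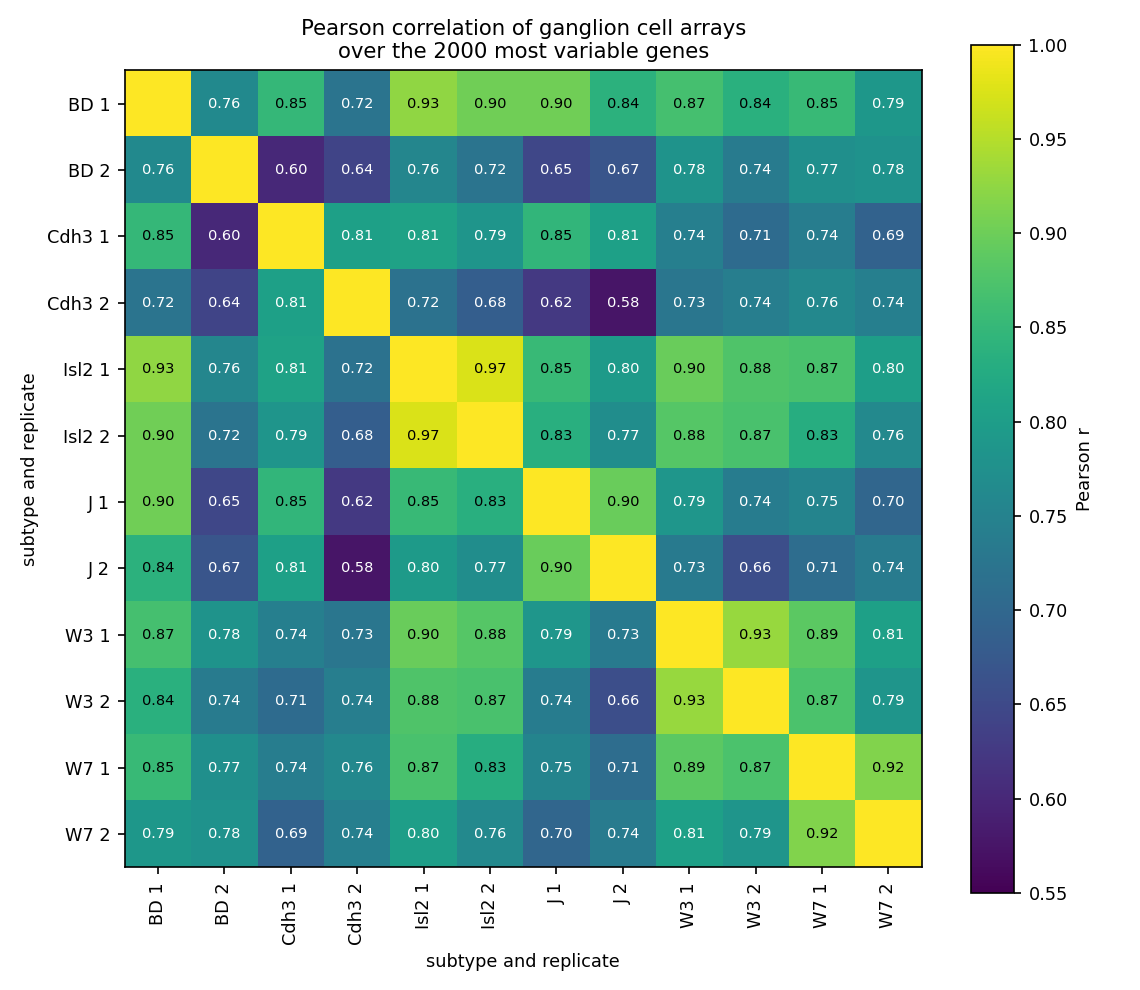
Pearson correlation between each pair of the 12 ganglion cell arrays over the 2000 most variable genes; rows and columns are subtype and replicate, and colour gives r. The BD replicates correlate at 0.764, and the row of BD replicate 2 is darker than that of BD replicate 1, which reaches 0.926 with Isl2 replicate 1.

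The 6 genes with the largest difference between the BD replicates are a small part of the 1493 that differed by at least 1 unit. 5 of the 6 were higher in replicate 1. These included Pdgfrb, the receptor that marks pericytes, at 9.84 in replicate 1 and 4.57 in replicate 2, and Nid1, a basement membrane protein, at 9.65 and 4.31. Also higher in replicate 1 were Abcc9, a potassium channel regulator of pericytes and muscle, at 10.38 and 5.84, and Apcdd1, a Wnt inhibitor of vessel endothelium and other cells, at 9.35 and 4.36. On further, dimmer probe sets the gap was smaller: Pdgfrb was at 5.46 and 4.54, and Nid1 at 5.14 and 4.58 and at 4.10 and 4.09. Those of Abcc9 were at 5.14 and 4.45 and at 5.74 and 4.49. Those of Apcdd1 ran from 6.37 and 4.24 to 5.03 and 5.69, the latter higher in replicate 2. On the brightest sets these genes varied widely among the 10 other arrays, for Pdgfrb from 4.32 to 10.98. BD replicate 1 sat within the range for each of these genes. BD replicate 2 was near the lower end for Pdgfrb and for Abcc9, whose lowest other array was at 5.31. For Nid1 and Apcdd1 it lay below all 10 other arrays, whose lowest levels were 4.65 and 5.30. List means here and below take all genes of a list on the array, tested or not. The mean level of the vascular marker list, with 14 genes on the array and 10 tested, was 6.90 in BD replicate 1 and 5.80 in BD replicate 2. This was inside the 5.53 to 7.44 of the other arrays. Within that list Pecam1 and Cldn5, which mark endothelium, were too dim to be tested, with levels from 4.80 to 5.60 in all 12 arrays. The last of the 5 was Eif2s3y, a Y-linked gene, at 10.56 and 6.14. Higher in replicate 2 was Ehf, an epithelial transcription factor, at 6.38 and 10.88 on its brightest probe set, whereas its 3 further probe sets lay between 4.10 and 4.95 in both BD arrays. On the brightest set Ehf also reached 8.43 in W3 replicate 1 and 8.38 in W7 replicate 1. Xist, expressed from the inactive X chromosome, was at 10.20 in BD replicate 1 and 11.66 in BD replicate 2. It was examined after the value of Eif2s3y was seen. The part of these differences in the results below was not tested other than by leaving out each BD array.

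Across the comparison, 44 genes were higher in BD cells (0.315% of those tested) and 25 were lower (0.179%). Of these, 36 higher genes (0.258%) and 14 lower genes (0.100%) were separated. The median difference over all tested genes was -0.01, and 1412 genes had an unadjusted p under 0.05. BD cells had the highest mean of all 13 subtypes, amacrine and bipolar cells included, for 21 of the 44 higher genes. Both BD arrays contributed to the calls, replicate 2 more strongly. Among the 44 higher genes the median distance from the mean of the other subtypes was 1.39 for replicate 1 and 1.85 for replicate 2, and among the 25 lower genes it was -1.05 and -1.91. Fitted with replicate 2 as the only BD array, limma called 363 genes higher and 462 lower, among them 41 of the 44 and all 25 of the 25. With replicate 1 alone it called 9 higher and 1 lower. In these fits the lone array is assumed to vary like the other subtypes' replicates.

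9 genes passed with both BD arrays and with either one alone. 8 of them were higher in BD cells: Niban1, Olfm3, Tfap2d, Cbln4, Galnt15, Lgals7, Ptgir and Crhbp. The ninth, Serpinb9, was lower.

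Niban1, a protein linked to cell stress and survival, had the smallest adjusted p. It was at 7.87 in BD replicate 1 and 8.24 in BD replicate 2, and the 10 other arrays ran from 4.76 to 6.24 with a median of 5.24. The 2 BD arrays stood clear of every other ganglion cell array, and no other subtype of the 13 had a higher mean. The difference was 2.71 ± 0.19 (SE), a 6.56-fold change, with an adjusted p of 5.67e-07 in limma. Replicate 1 alone gave 2.53 and replicate 2 alone gave 2.90.

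Olfm3 encodes optimedin, a secreted glycoprotein with an olfactomedin domain. It was at 10.89 and 11.02 in the BD arrays and from 7.00 to 8.81 in the others, with a median of 8.42. The groups did not overlap, and the BD replicates lay close together. The difference was 2.71 ± 0.29 with an adjusted p of 1.02e-04 in limma, and the 2 further probe sets of Olfm3 differed by 2.31 and 2.75. AII amacrine cells had a higher mean, 11.34, so the gene was not restricted to BD cells within the retina.

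Tfap2d, an AP-2 family transcription factor, was at 9.85 and 9.20 in BD cells and from 5.32 to 8.90 elsewhere. The 10 other arrays fell into levels near the BD range and levels far below it: the subtype means were 8.79 in W7 and 8.27 in Isl2 but 6.05 in J, 5.89 in W3 and 5.32 in Cdh3. The difference from all 5 was 2.66 ± 0.26 (limma, adjusted p = 4.44e-05). Against W7 alone it was 0.74 ± 0.34 and against Isl2 alone 1.25 ± 0.34, and neither passed (limma, adjusted p = 0.519 and 0.149).

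Cbln4 encodes a secreted synapse-organising protein of the cerebellin family. Its level was 8.64 in BD replicate 1 and 10.12 in replicate 2, and it ran from 4.64 to 8.71 in the other arrays with a median of 6.30. W3 replicate 1 was slightly above BD replicate 1, so the groups overlapped by 1 array. The difference was 2.90 ± 0.33 (limma, adjusted p = 1.78e-04). AII and J amacrine cells had higher means than BD cells, 10.42 and 10.20.

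Galnt15, an enzyme that starts O-linked glycosylation, was at 6.74 and 7.76 against 4.91 to 5.56 in the others, a difference of 2.09 ± 0.23. Lgals7, a galectin that binds cell-surface sugars, was at 8.96 and 8.71 against 6.50 to 7.55, a difference of 1.93 ± 0.18. Ptgir, the receptor for prostacyclin, was at 8.14 and 8.48 against 5.55 to 7.22, a difference of 1.91 ± 0.23. All 3 were separated, with adjusted p of 1.02e-04, 3.30e-05 and 2.19e-04 in limma. Lgals7 and Ptgir had their highest mean of all 13 subtypes in BD cells. For Galnt15 starburst amacrine cells were higher, with a mean of 10.54.

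Cartpt, Col25a1, Cdh6 and Satb1 are the genes by which BD cells were to be recognised, and all 4 were higher in BD cells. They were listed with earlier results of these data known, so their direction is no independent support for the label. Of the 10 genes of the BD and ON-OFF direction-selective list, 7 were tested, and these 4 passed against a background of 0.315%. The median difference of the 7 was 1.64, against -0.01 over all genes. The 3 that did not pass were Mmp17, a matrix metalloproteinase, with a difference of 0.56, Cdh10, a cadherin, with 0.73, and Calb1, a calcium buffer, with 0.97. Fstl4 was too dim to be tested, with levels of 5.16 and 4.90 in BD cells and 4.75 to 5.26 in the others.

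Cartpt encodes the precursor of the cocaine- and amphetamine-regulated transcript peptides, which serve as a marker of ON-OFF direction-selective cells. It was at 11.37 in BD replicate 1 and 11.01 in BD replicate 2. The 10 other arrays ran from 5.54 to 9.83 with a median of 7.72, the highest being Isl2 replicate 1. Both BD arrays were above all of them, and the difference, 3.46 ± 0.54 or 11-fold, was the largest of all higher genes that passed (limma, adjusted p = 0.00315). The subtype means fell in the order BD 11.19, Isl2 9.44, J 8.38, W7 7.27, W3 6.97 and Cdh3 6.59. Against Cdh3, W3 and W7 the gene passed. Against Isl2 (1.76 ± 0.69) and J (2.81 ± 0.69) it did not, with limma adjusted p of 0.347 and 0.0699. Without BD replicate 2 the difference from all 5 was 3.64 with an adjusted p of 0.104 in limma.

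Col25a1, a membrane-anchored collagen of neurons, was at 11.04 and 11.61 in the BD arrays. The others ran from 7.87 to 9.63 with a median of 8.66. Its difference was 2.60 ± 0.34 (limma, adjusted p = 5.41e-04), and it passed against each of the 5 subtypes. The highest mean of the 13 subtypes, 11.51, was in starburst amacrine cells. A second, dim probe set of Col25a1 gave a difference of -0.15, with levels from 5.73 to 6.23 in the other arrays.

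Satb1, a nuclear protein that organises chromatin, was at 11.53 and 12.26 against 9.60 to 10.86. Its difference of 1.64 ± 0.21 (limma, adjusted p = 4.98e-04) was seen again in 3 further probe sets, at 1.77, 2.23 and 1.20. The last further set, at a level of 5.19 in both BD arrays, gave -0.04. Satb1 passed against each of the 5 subtypes.

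Cdh6, a classical cadherin that mediates adhesion between like cells, was at 10.94 and 11.84. The others ran from 6.76 to 11.47, and here the groups overlapped, because the Cdh3 arrays were as high as the BD arrays with a mean of 11.30. The difference from all 5 subtypes was 2.12 ± 0.28 (limma, adjusted p = 6.06e-04). The difference from Cdh3 alone was 0.09 ± 0.36, and that from W3 was 4.08 ± 0.36. A second, dimmer probe set of Cdh6 differed by 0.92 and did not pass. Without BD replicate 2 the limma adjusted p was 0.0904 for Col25a1, 0.131 for Cdh6 and 0.0954 for Satb1.

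**Figure D2:**
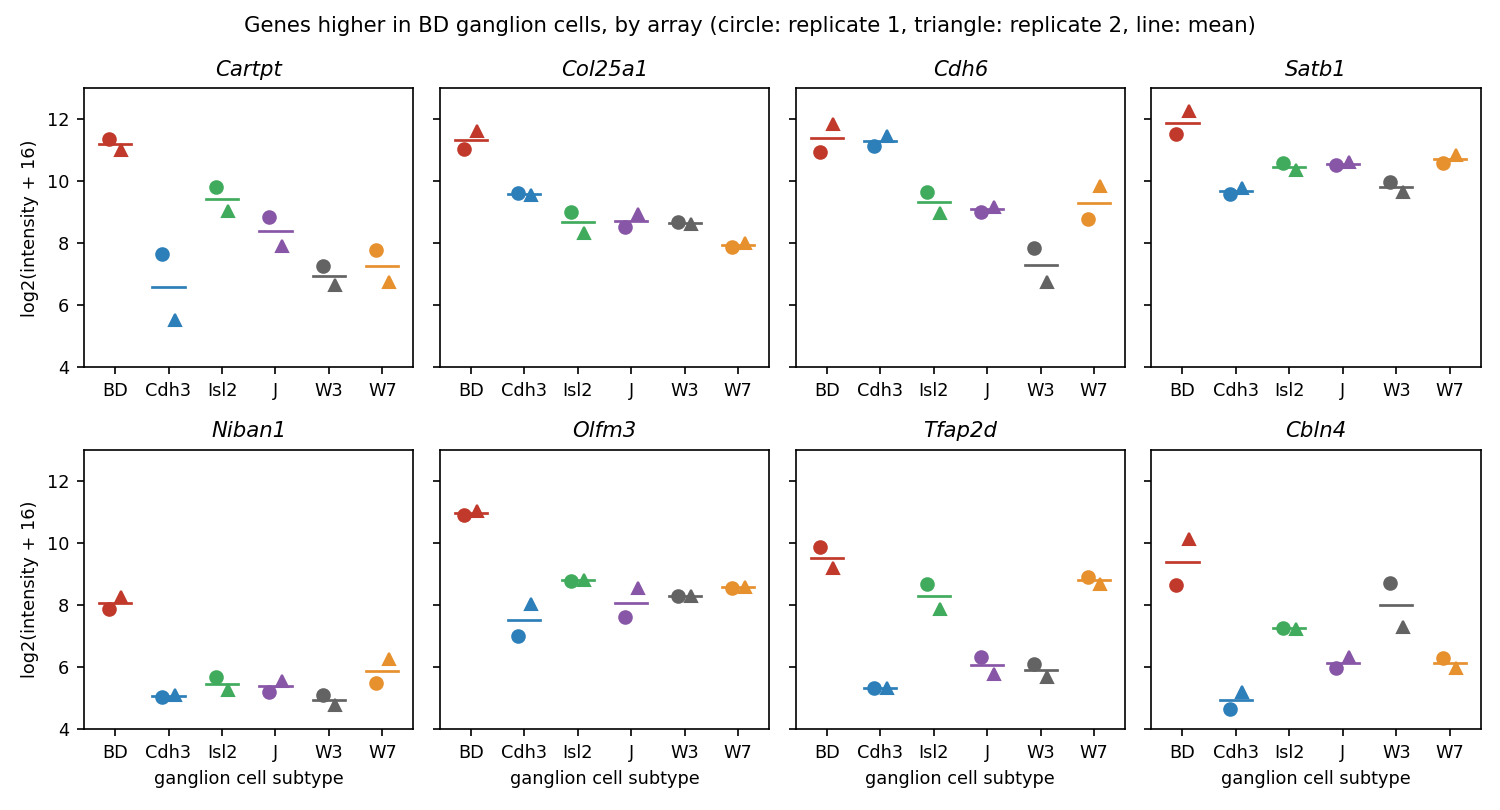
Level, as log2(intensity + 16), of 8 genes higher in BD cells in each of the 6 ganglion cell subtypes; circles are replicate 1, triangles replicate 2 and lines their mean. Cartpt, Col25a1, Satb1, Niban1, Olfm3 and Tfap2d lie above every other array in both BD replicates, whereas Cdh6 is as high in Cdh3 cells (mean 11.30) and Cbln4 reaches 8.71 in W3 replicate 1.

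The 250 bases before the RefSeq start of 3 of these genes are shown because 5 short motifs, each searched on both strands, were looked for in the promoters of the 36 separated higher genes. Of the 36, 30 had an entry in RefSeq's GRCm38.p6 table. The cAMP response element TGACGTCA was found in Cartpt and in Scg2, a granule protein and peptide precursor described below with the peptides. It occurs in 1.55% of all 32851 promoters of this length. The POU octamer ATGCAAAT, the core site of POU-domain factors, was found in Col25a1 on the opposite strand and occurs in 1.6% of all promoters. Of the other motifs, TATAAA was found in 2 of the 30 (12.4% of all promoters), CACGTG in 2 (6.02%) and TAATTA in 0 (4.84%). A match is a run of letters and does not show binding. Capitals mark the motif, which begins at base -112 of Cartpt, -68 of Scg2 and -167 of Col25a1 counted from the start. The regions are chr13:99900684-99900933 on the minus strand for Cartpt, chr1:79440027-79440276 on the minus strand for Scg2 and chr3:130180595-130180844 on the plus strand for Col25a1, and each is written 5′ to 3′ on the gene's strand.
Cartpt: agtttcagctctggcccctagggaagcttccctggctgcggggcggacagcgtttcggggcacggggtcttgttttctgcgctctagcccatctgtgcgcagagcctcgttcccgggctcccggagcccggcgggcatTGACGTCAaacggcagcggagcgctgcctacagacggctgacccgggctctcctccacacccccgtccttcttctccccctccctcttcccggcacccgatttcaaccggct
Scg2: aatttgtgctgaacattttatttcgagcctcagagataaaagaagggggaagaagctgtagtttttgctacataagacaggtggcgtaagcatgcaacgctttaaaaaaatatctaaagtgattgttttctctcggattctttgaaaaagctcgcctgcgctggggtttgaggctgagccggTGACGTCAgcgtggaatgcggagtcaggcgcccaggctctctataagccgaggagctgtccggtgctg
Col25a1: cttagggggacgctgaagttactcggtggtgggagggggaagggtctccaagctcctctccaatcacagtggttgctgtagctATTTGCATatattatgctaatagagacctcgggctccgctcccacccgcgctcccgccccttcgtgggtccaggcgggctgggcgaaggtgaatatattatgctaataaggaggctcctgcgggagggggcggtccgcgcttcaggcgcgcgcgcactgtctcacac

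Among transcription factors, a list of 62 tested genes, 3 were higher and 3 lower in BD cells, where 0.315% and 0.179% of all genes were called, and the list's median difference was -0.10. The higher ones were Tfap2d, Satb1 and Prdm8. Prdm8, a chromatin regulator of neurons, was at 8.14 and 8.70 in BD cells and from 4.59 to 10.02 in the others. J cells were higher than BD cells, with a mean of 9.82, and the difference from all 5 subtypes was 1.47 ± 0.32 (limma, adjusted p = 0.0389). Leaving out the Cdh3 or the W3 subtype ended this call, at 1.05 and 1.07. Tshz3, a zinc-finger factor outside that list, was at 9.00 and 9.77 against 6.78 to 8.47 and was separated, with a difference of 1.90 ± 0.29 (limma, adjusted p = 0.0027). Its paralogue Tshz2 went the other way, at 7.36 and 7.80 against 8.41 to 9.86, with a difference of -1.38 ± 0.24 (limma, adjusted p = 0.00752). For Tshz2 the next brightest probe set gave only -0.14.

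Klf9, a Krüppel-like factor known to restrain axon growth, was the gene with the largest negative difference among separated genes. It was at 9.93 in BD replicate 1 and 7.42 in BD replicate 2, and the other arrays ran from 10.33 to 11.25. Both BD arrays were below all others, but replicate 2 was far lower than replicate 1. The difference was -2.17 ± 0.37 (limma, adjusted p = 0.00752). Replicate 1 alone gave -0.91 and did not pass, and the 6 further probe sets of Klf9 gave differences from -1.68 to 0.21. The brightest of these further sets was at 9.85 and 10.52 in the BD arrays against 10.31 to 11.38. It gave -0.58, was not separated and did not pass. With ganglion cell arrays alone the Klf9 difference was -0.57 (limma, adjusted p = 0.541), so the call depends on the probe set. Tbx20, a T-box factor of melanopsin cells, was at 4.75 and 4.70 in BD cells. It ran from 4.77 to 5.51 in Isl2, J, W3 and W7 and stood at 8.38 and 8.66 in Cdh3, so its difference of -1.03 ± 0.17 (limma, adjusted p = 0.00486) became -0.34 without Cdh3 and did not pass.

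Adhesion and recognition genes gave a small number of calls, to be read against 0.315% of all genes called higher and 0.179% lower. Of 14 classical cadherins tested, Cdh6 alone passed, and Cdh2, the broadly expressed neural cadherin, was at 11.06 and 11.17 against 11.03 to 11.51. Of 8 delta-protocadherins, 2 were higher. Pcdh10 was at 10.15 and 10.83 against 7.73 to 10.80, a difference of 1.36 ± 0.22 (limma, adjusted p = 0.0047). Pcdh18 was at 10.15 and 10.38 against 8.51 to 10.36, a difference of 1.16 ± 0.25 (limma, adjusted p = 0.0366). The J arrays reached the BD range for both, with means of 10.78 and 10.34, so neither gene was separated. The call of Pcdh18 was lost in 18 of 30 alternative settings. Pcdh11x was at 11.66 and 11.86, above the 8.42 to 11.05 of the others, but its adjusted p in limma was 0.0572.

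Of 31 immunoglobulin-superfamily adhesion genes, 1 passed in each direction, where 0.315% of all genes were called higher and 0.179% lower. Negr1, a neuronal surface protein of the IgLON family, was at 9.62 and 10.97 against 6.98 to 9.12, separated, with a difference of 1.86 ± 0.28 (limma, adjusted p = 0.00235). Jam2, the junctional molecule that marks J cells, was at 7.92 and 7.75 in BD cells, 10.87 and 11.26 in J cells and 7.40 to 9.30 in the rest. Its difference of -1.18 ± 0.23 (limma, adjusted p = 0.0175) became -0.67 without the J subtype and did not pass, and it was 0.13 with the next brightest probe set. Among 34 axon guidance genes only the secreted repellent Sema3a passed, at 9.96 and 10.43 against 7.58 to 10.02, a difference of 1.39 ± 0.28 (limma, adjusted p = 0.0246). Without the W3 subtype it was 1.10 and did not pass, and Cdh3 and W7 both had means of 9.70 against 10.19 in BD cells. Among 28 leucine-rich repeat proteins, teneurins and latrophilins only the latrophilin Adgrl2 passed, at 9.98 and 10.36 against 8.41 to 9.51, a difference of 1.06 ± 0.18 (limma, adjusted p = 0.00752). None of 17 Eph receptors and ephrins passed. The nearest was the ligand Efnb2, at 9.34 and 10.77 against 8.23 to 10.20 (difference 1.04 ± 0.27, limma adjusted p = 0.108). Of 27 collagens, laminins and matrix proteins, Col25a1 alone passed.

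The 16 genes with the largest positive difference were picked from separated genes only, so their separation is no further result. 5 more of them are given here. Adgrg6, an adhesion G protein-coupled receptor known from myelinating glia, was at 6.73 and 8.05 against a narrow 5.05 to 5.57, with a difference of 2.05 ± 0.26. Hs3st4, which sulfates heparan sulfate, was at 9.41 and 10.01 against 6.33 to 9.04, with 1.86 ± 0.33. Rab27b, a GTPase of vesicle release, was at 9.17 and 10.38 against 6.32 to 8.46, with 2.18 ± 0.42. Tafa1, a secreted chemokine-like protein, was at 7.46 and 8.80 against 5.22 to 7.07, with 2.12 ± 0.33. In each of these genes BD replicate 2 was the higher. Their limma adjusted p were 5.02e-04, 0.00975, 0.0192 and 0.00352. Fam163a was at 8.80 and 9.16 against 6.59 to 7.82 and differed by 1.77 ± 0.26 (limma, adjusted p = 0.00183). None of these 5 passed with BD replicate 1 alone.

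Receptor genes for GABA, glycine and acetylcholine gave 3 calls among 23 tested, 2 higher (0.315% of all genes) and 1 lower (0.179%). Gabra4, the alpha4 subunit of the GABA-A receptor, was at 8.56 and 9.57 in BD cells against 5.39 to 8.02, a difference of 2.11 ± 0.34 (limma, adjusted p = 0.00383). It was separated and highest in BD cells among the 13 subtypes, although its next brightest probe set gave 0.74 and did not pass. Chrnb4, a beta subunit of nicotinic acetylcholine receptors, was at 6.92 and 7.03 against 5.59 to 6.35, a difference of 1.04 ± 0.18 (limma, adjusted p = 0.00682). Chrna6, an alpha subunit of the same receptor family, was lower in BD cells, at 8.75 and 8.12. The others ran from 8.45 to 10.90, and the low end was Cdh3, with a mean of 8.71. Its difference was -1.55 ± 0.24 (limma, adjusted p = 0.00352). None of 19 glutamate receptors, 19 voltage-gated calcium channels or 29 voltage-gated sodium and potassium channels passed, with list medians of 0.08, -0.04 and -0.20. Kcnj5, a G protein-gated potassium channel named for its difference from W3, was at 5.71 and 4.76 in BD cells, 8.01 and 8.44 in W3 and 5.27 and 5.26 in W7. Its difference from all 5 subtypes was -1.56 ± 0.25 (limma, adjusted p = 0.0047).

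Of 21 neuropeptide genes, Cartpt and Scg2 were higher (0.315% of all genes) and Crh was lower (0.179%). Scg2 was at 8.66 and 10.04 against 7.10 to 8.25, a difference of 1.62 ± 0.36 (limma, adjusted p = 0.0407), and its call was lost in 15 of 30 alternative settings. Crh encodes corticotropin-releasing hormone. It was at 7.68 in BD replicate 1 and 5.26 in BD replicate 2, and the others ran from 4.53 to 11.60 by subtype, with means of 11.47 in W7, 9.59 in W3, 9.57 in Isl2, 6.47 in J and 4.64 in Cdh3. The gene passed as lower in BD cells against W7, W3 and Isl2, and the BD mean of 6.47 was not below that of J or Cdh3. The difference from all 5 was -1.88 ± 0.40 (limma, adjusted p = 0.0327), and -1.10 without W7, where it did not pass. Crhbp, which encodes the binding protein of this hormone and was picked out after its values were seen, was at 10.28 and 10.17 in BD cells and from 8.11 to 9.91 in the others. It was separated, highest in BD cells among the 13 subtypes and different by 1.33 ± 0.15 (limma, adjusted p = 1.78e-04). Against Isl2 alone, whose mean was 9.75, it differed by 0.48 ± 0.20 and did not pass (limma, adjusted p = 0.372).

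Aldh1a3 was picked out after its values were seen, and Crabp2 was named for its difference from J cells. Aldh1a3, an enzyme that makes retinoic acid, was at 6.58 and 7.19 against 4.91 to 6.14 and differed by 1.55 ± 0.19 (limma, adjusted p = 3.45e-04). Crabp2, which carries retinoic acid to its receptor, was at 7.79 and 6.90 against 4.83 to 6.55 and differed by 1.68 ± 0.31 (limma, adjusted p = 0.0125). Both were separated and had their highest mean of the 13 subtypes in BD cells. The call of Crabp2 was lost with either BD array alone, at adjusted p of 0.0612 without replicate 1 and 0.0715 without replicate 2 in limma. Aldh1a3 lost its call without replicate 2 (limma, adjusted p = 0.0769).

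Lower genes rested more on BD replicate 2, which lay farther from the other subtypes in 23 of the 25. It also lay farther in 10192 of all 13951 genes tested, so this is in large part a trait of the array. Serpinb9, an inhibitor of granzyme B, and Tshz2 were the exceptions among the 25. Serpinb9 was at 6.42 and 6.53 against 7.16 to 8.41, and the difference of -1.35 ± 0.18 (limma, adjusted p = 6.06e-04) was -1.40 with replicate 1 alone and -1.29 with replicate 2 alone. The next brightest probe set of Serpinb9 gave -0.59 and the median over probe sets -0.97, and neither passed. Its call was also lost with pseudocount 1 and with array weights (limma, adjusted p = 0.307 and 0.0525). Gda, guanine deaminase, was at 6.10 and 5.59 against 6.51 to 9.25, a difference of -1.82 ± 0.25 (limma, adjusted p = 8.64e-04). Sv2b, a synaptic vesicle protein, was at 9.20 and 8.61 against 9.57 to 10.83, a difference of -1.39 ± 0.27 (limma, adjusted p = 0.0178). Its next brightest probe set gave -0.04.

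A further 7 separated lower genes were all lowest in BD replicate 2. Ptprg, a receptor tyrosine phosphatase, was at 8.07 in BD replicate 1, just under the 8.11 to 9.72 of the others, and at 5.55 in BD replicate 2. Caln1, a calcium-binding protein of neurons, showed the same shape, with 9.67 and 8.02 against 9.71 to 11.19. So did Fhod3, a formin that builds actin filaments, with 8.38 and 6.98 against 8.49 to 9.62, and G0s2, an inhibitor of fat breakdown, with 6.75 and 5.22 against 6.91 to 7.94. Slc24a2, a sodium-calcium exchanger, was at 7.34 and 6.47 against 7.70 to 9.45. Chn2, a Rac-inactivating chimaerin, was at 7.38 and 6.96 against 7.43 to 9.59, and Hsbp1l1 was at 5.34 and 4.67 against 5.65 to 7.83. Each of these 7 lost its call without BD replicate 2.

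**Figure D3:**
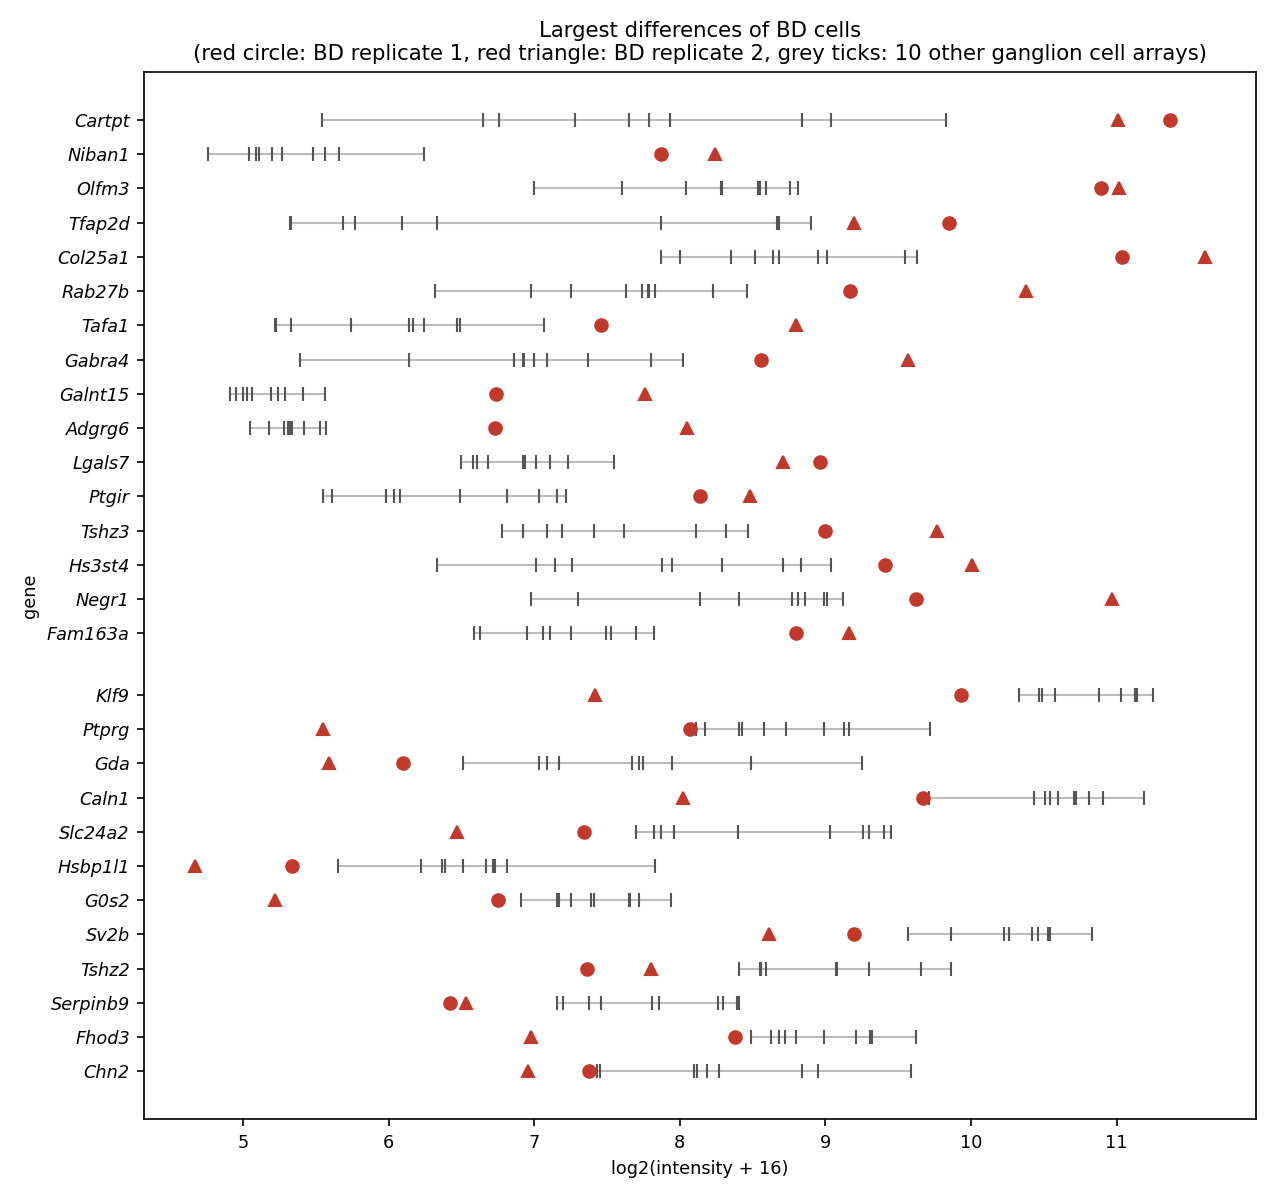
Level, as log2(intensity + 16), of the 16 separated genes with the largest positive and the 12 with the largest negative difference; red circles are BD replicate 1, red triangles BD replicate 2, grey ticks the 10 other ganglion cell arrays and grey lines their range. For Klf9 the BD arrays lie at 9.93 and 7.42, whereas for Olfm3 they lie at 10.89 and 11.02.

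BD cells were also set against each other subtype in turn. All 5 comparisons share the 2 BD arrays, so they are not independent. With Cdh3, 309 genes passed (2.21%), 120 higher and 189 lower in BD cells. With W7 it was 193 (1.38%), with W3 106 (0.760%), with J 102 (0.731%) and with Isl2 45 (0.323%). The counts moved widely with BD replicate: without BD replicate 1 they were between 459 and 1296, and without BD replicate 2 between 4 and 144. Cdh3 gave the most genes in every alternative tried on the pairs except without Cdh3 replicate 2, where it gave 194 and W7 gave 201. The rest of the order turned. Without BD replicate 1, Isl2 gave 1091 and W7 the fewest, 459, and J gave fewer than Isl2 with array weights (12 and 14) and with the next brightest probe set (52 and 60). The differences between the 5 counts were not tested. Cdh3 cells were also the only ones from a Swiss Webster cross and the only ones sorted by GFP. In that comparison subtype, strain and reporter cannot be told apart.

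Higher against Cdh3 cells were Gm17750, with a BD mean of 9.77 and a Cdh3 mean of 5.27, and Cbln4, with 9.38 and 4.92. The lowest were 2 genes high in Cdh3 cells. Shisa6, an auxiliary protein of AMPA receptors, was at 10.46 in Cdh3 and 5.68 in BD (difference -4.78 ± 0.36, limma adjusted p = 4.60e-07). Its difference from all 5 subtypes, -1.48, became -0.66 without Cdh3 and did not pass. Eomes, a T-box factor of melanopsin ganglion cells, was at 11.37 and 7.15 (difference -4.22 ± 0.56, limma adjusted p = 1.96e-04). Its level was 8.33 in BD replicate 1 and 5.96 in BD replicate 2. Opn4, which encodes melanopsin, was at 5.98 and 4.74 in the BD arrays and at 9.30 and 8.88 in the Cdh3 arrays.

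Among the genes that passed against Isl2 cells, 4930570G19Rik was higher in BD cells (7.82 against 5.83) and so was Gabra2, the alpha2 subunit of the GABA-A receptor (9.79 against 7.99). Crh (6.47 against 9.57) and Adgra1, an adhesion G protein-coupled receptor (7.74 against 10.45), were lower. Their limma adjusted p ran from 0.0134 for Crh to 0.043 for Gabra2.

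J cells differed from BD cells by Jam2 (difference -3.24 ± 0.29, limma adjusted p = 2.06e-05) and by Anxa1, an annexin, with means of 6.10 in BD and 9.85 in J. Anxa1 was at 7.30 in BD replicate 1 and 4.91 in BD replicate 2. Bnc2, a zinc-finger protein, was higher in BD cells, with 10.73 against 8.21 (11.31 and 10.15 in the BD arrays), as was Crabp2, with 7.34 against 4.84. From W3 cells BD cells differed by lower Kcnj5 (5.23 against 8.22) and lower Car3, a carbonic anhydrase (8.00 against 10.96). Prdm8 (8.42 against 5.36) and Pf4, a chemokine of platelets and macrophages (7.90 against 4.91), were higher. Pf4 was at 8.99 in BD replicate 1 and 6.81 in BD replicate 2. The macrophage list, beside which Pf4 is read, had a mean of 7.20 and 6.81 in the BD arrays and 6.05 and 5.65 in the W3 arrays. Its part in that difference was not tested. From W7 cells BD cells differed by lower Glra1, a glycine receptor subunit (5.35 against 8.42), and lower Ctxn3, a small membrane protein (6.98 against 10.01). In the BD arrays Glra1 was at 6.13 and 4.56 and Ctxn3 at 7.66 and 6.30. Higher genes were 1700017N19Rik (8.55 against 5.58) and Dscaml1, a cell adhesion molecule of the DSCAM family (9.59 against 7.01). All 12 of these passed in their comparison in limma, with adjusted p from 2.06e-05 for Jam2 to 0.0463 for Dscaml1.

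**Figure D4:**
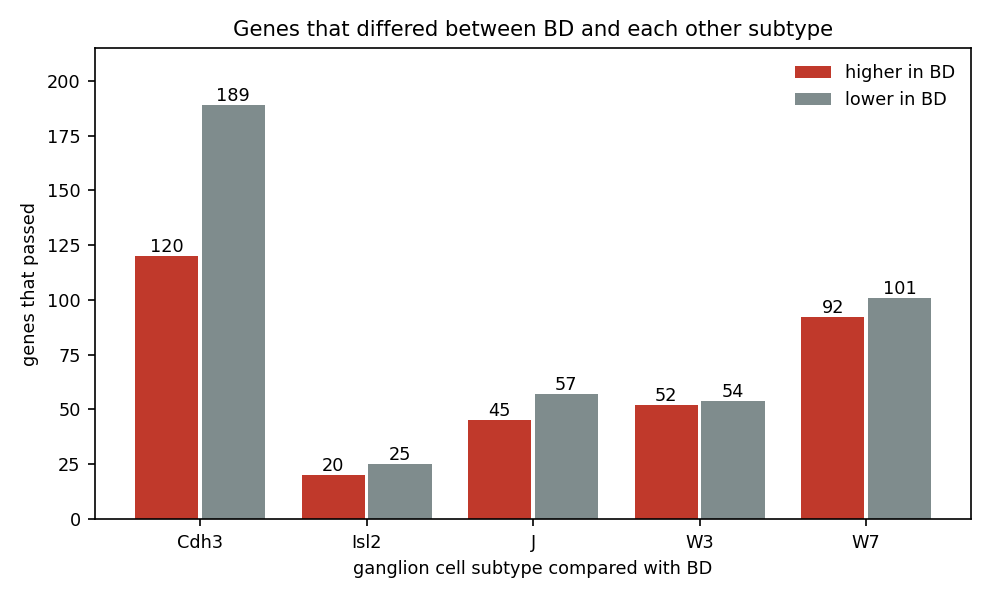
Number of genes that passed in BD cells against each of the 5 other ganglion cell subtypes, higher in BD (red) or lower in BD (grey); bars start at 0. Cdh3 gives the most, 120 higher and 189 lower, and Isl2 the fewest, 20 and 25. Cdh3 cells also differ from BD cells in strain and reporter.

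The general markers of ganglion cells gave no call in BD cells. Of 19 pan-ganglion cell genes tested with limma, 0 passed and 0 had an unadjusted p under 0.05. Of all 13951 genes, 0.315% were called higher and 0.179% lower, and 1412 had such a p. With shares this small, 0 calls in a list of this size says little. The list mean, over 20 genes on the array, was 10.47 and 10.43 in the BD arrays and 10.26 to 10.71 in the others. The surface antigen of the sort, Thy1, was at 11.58 in both BD arrays and from 10.34 to 11.80 elsewhere. Rbpms, an RNA-binding protein of ganglion cells, was at 11.20 and 11.38, and Slc17a6, their glutamate transporter, was at 11.65 and 11.87. Isl2, the gene of another line, was at 7.01 and 7.51, inside the range of 5.84 to 8.20. Tubb3, a neuronal tubulin, differed by -0.55 and did not pass.

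Marker lists of other cells gave no call in BD cells. The counts were 0 of 15 amacrine, 0 of 11 starburst, 0 of 14 bipolar, 0 of 10 rod, 0 of 7 cone, 0 of 11 Muller glia and 0 of 4 astrocyte genes. They were also 0 of 12 microglia, 0 of 10 macrophage, 0 of 10 vascular, 0 of 2 red blood cell and 0 of 12 cell cycle genes. Sox2 is in both the starburst and the cell cycle list, and of these 117 different genes, 12 had an unadjusted p under 0.05 in limma. Of all 13951 genes tested, 1412 did. Over all genes, 0.315% were called higher and 0.179% lower. Microglial genes were nonetheless present in the sorted samples: the list mean was 8.77 in BD replicate 1 and 8.03 in BD replicate 2, and from 6.00 to 10.19 in the others. The red blood cell list, with only 3 genes on the array and 2 tested, was at 5.79 and 6.33 in the BD arrays and from 5.30 to 5.95 in the others. Slc32a1, the transporter of GABA and glycine in amacrine cells, was at 4.39 and 4.09 in the BD arrays, at or near the floor of the scale, and Chat, the enzyme of starburst cells, was at 6.02 and 6.32 against 5.87 to 6.53. Among other ganglion cell lists, 0 of 8 alpha-type and 0 of 5 F-type genes passed in limma, with 2 of these 13 at an unadjusted p under 0.05. The melanopsin list had Tbx20 lower of 10, the J-type list Jam2 lower of 5 and the W3-type list Prdm8 higher of 8. The W3-type list did not mark W3 cells here. Its mean was 8.63 and 8.08 in the W3 arrays and 9.18 and 9.39 in the J arrays. Prdm8 itself had a mean of 5.36 in W3 cells. The remaining gene families gave no call: 0 of 29 growth factor signalling, 0 of 18 calcium-binding, 0 of 20 immediate early and stress, and 0 of 25 axon cytoskeleton genes. Together with the Eph, glutamate receptor and channel lists these held 176 genes, of which 33 had an unadjusted p under 0.05 in limma. That is a larger share than the 1412 of all 13951 genes. Of the 29 growth factor signalling genes, 10 had such a p.

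**Figure D5:**
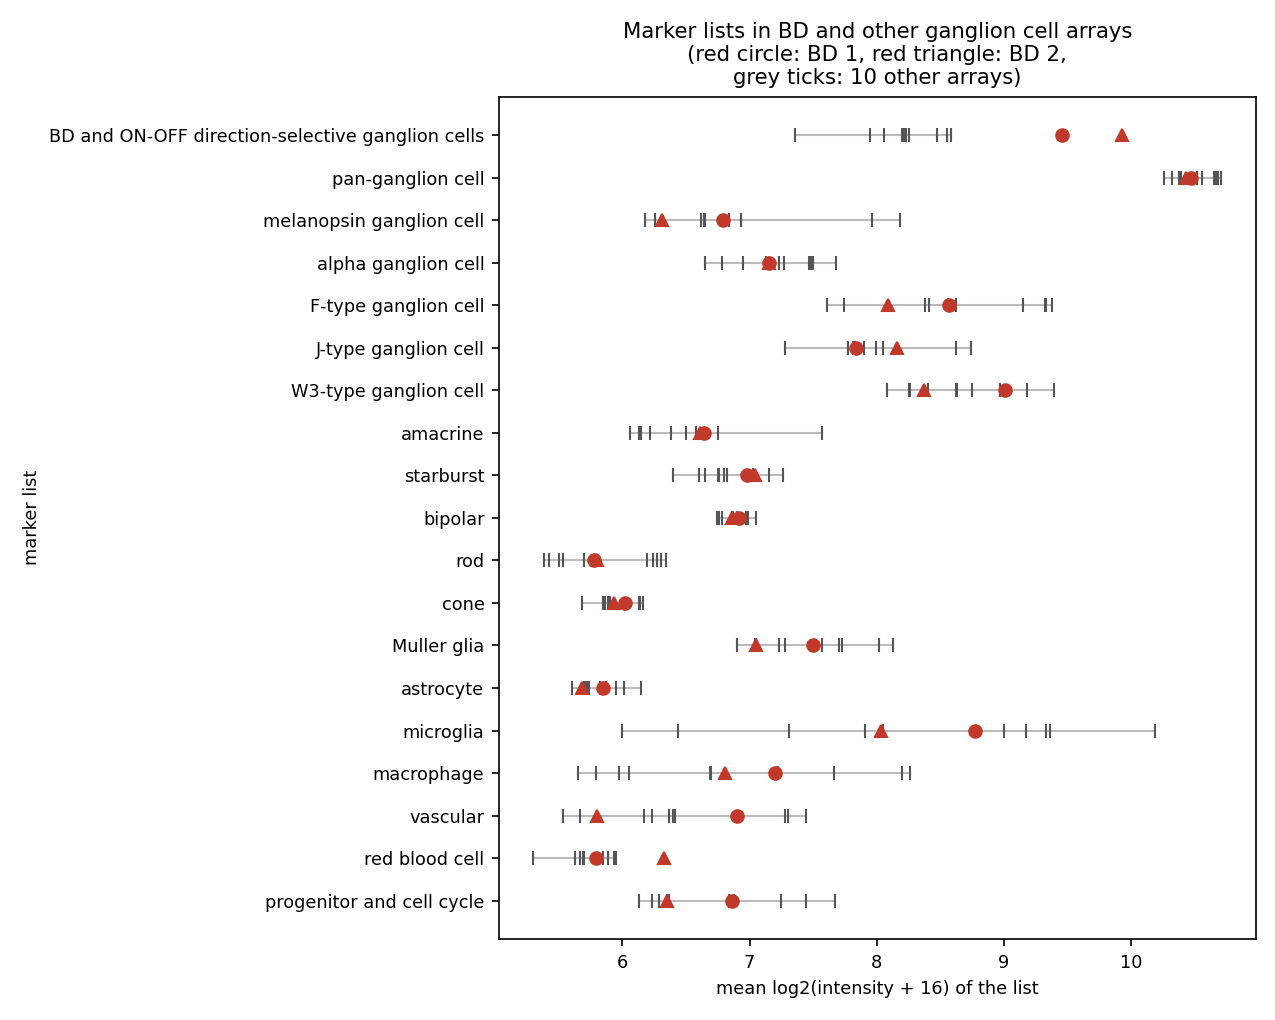
Mean level, as log2(intensity + 16), of each marker list in BD replicate 1 (red circle), BD replicate 2 (red triangle) and the 10 other ganglion cell arrays (grey ticks, with their range as a line). The BD and ON-OFF direction-selective list is above all others in both BD arrays (9.46 and 9.93), and the vascular list differs between them (6.90 and 5.80).

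Signal from the array's 3′ and 5′ control probe sets differed between the BD replicates. The ratio of 3′ to 5′ actin signal was 3.11 in BD replicate 1 and 5.66 in BD replicate 2, and 2.74 to 7.05 in the others. For Gapdh it was 6.08 and 3.84, and 2.75 to 7.37 in the others, so both BD arrays lay inside the range of the other 10. The part of RNA quality in the distance of BD replicate 2 from the rest was not tested.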

How the data were processed

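The deposited table holds 1 linear intensity per probe set and array for 26 Affymetrix arrays, with 2 biological replicates of 13 subtypes, made by the authors. The software that made it is not given in the sources used here, and the lowest values are mostly exactly 1. Of 45037 probe sets, 34945 carried 1 gene symbol in the platform annotation and were used, 932 carried several and 9160 none. 34741 symbols were updated by gene identifier. Control probe sets (64) were left out.

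From these intensities log2(intensity + 16) was taken and quantile-normalised, the brightest probe set was kept for each of 18193 genes, and genes above the overall median (6.14) in at least 2 arrays were tested. limma 3.58.1 in R 4.3.3 fitted a mean for each of the 13 subtypes (13 residual degrees of freedom, prior 4.59), and BD was contrasted with the mean of the 5 other ganglion cell subtype means, then with each subtype. The fitting code was tested on simulated data. p-values and SEs rest on 1 spread per gene, pooled over the replicate pairs of all 13 subtypes, amacrine and bipolar cells included. They take BD replicates to vary like the rest, although the BD arrays agreed least among the ganglion cell subtypes. For genes on which the BD arrays lie far apart, such as Klf9, the SE can understate the BD spread. Replicates came from different litters, and the number of arrays limits the precision. Median intensities of the ganglion cell arrays were 61.5 to 74.8.

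The markers, gene lists and comparison were chosen with earlier results of these data known. Genes named were the 4 markers, the 16 highest and 12 lowest separated genes, 2 highest and 2 lowest per pair, the 6 with the largest difference between the BD replicates, members of the gene lists, and genes that define a line or the sort. Alternatives were other normalisations, pseudocounts, filters and probe set rules, array weights, a replicate block, ganglion cell arrays alone, subtype means as units and leaving out each array or subtype.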

Additional observations from a re-analysis of the deposited data

How the results depend on the processing

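Of 50 genes followed through up to 30 alternative settings, 46 kept their direction in every setting run. The exceptions came from the next brightest probe set, with differences of -0.15 for Col25a1, 0.02 for Slc24a2, 0.08 for Chn2 and 0.13 for Jam2. These 50 genes were followed because they passed in the same arrays, so a kept direction is no independent support. Array weights, a replicate block, other filters and subtype means as units leave the difference itself unchanged. The 44 higher and 25 lower genes became 9 to 363 and 1 to 462 with 1 array left out, both extremes set by the BD arrays. Array weights gave 15 and 2. Treating each subtype mean as 1 unit, with 4 residual degrees of freedom, limma called 0 and 0, with 603 genes at an unadjusted p under 0.05 and a lowest adjusted p of 0.0717, for Adgrg6. For lower genes, ganglion cell arrays alone gave 11, pseudocount 1 gave 13, and leaving out the Isl2 or J subtype gave 38 or 40.

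For the pairs, leaving out 1 array gave 144 to 1296 (Cdh3), 4 to 1091 (Isl2), 15 to 863 (J), 33 to 640 (W3) and 70 to 459 (W7). Besides the BD arrays, single arrays moved a count by over 1.5 times: 194 without Cdh3 replicate 2 (Cdh3), 5 without either Isl2 array and 22 without either W3 array (Isl2), 189 without either Cdh3 array and 46 without J replicate 2 (J), 58 and 33 without W3 replicates 1 and 2 (W3), and 105 and 70 without W7 replicates 1 and 2 (W7). In that order, array weights gave 161, 14, 12, 55 and 85. Ganglion cell arrays alone gave 5 (Isl2), 17 (J) and 54 (W3). The next brightest probe set gave 198 (Cdh3), 52 (J) and 70 (W3). Pseudocount 1 gave 18 (Isl2), 52 (J), 63 (W3) and 123 (W7), and no filter gave 25 (Isl2). The cause of these shifts was not tested.

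With a replicate block the counts were 45 higher and 26 lower, and 315, 50, 103, 114 and 198 for the pairs. The numbers were not taken to pair samples: of 15 pairs of subtypes, 7 had correlations of replicate deviations above 0.1, and they ran from -0.19 to 0.37. Signal near the floor limits dim genes such as Fstl4, which could not be tested, and the number of BD arrays limits the rest.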
